A study of Mus musculus with 6 samples.

Results

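The contractile myofibroblast genes are 10 genes of stromal cells, Acta2, Tagln, Myl9, Cnn1, Tpm2, Mylk, Lrrc15, Thbs2, Postn and Fap. They were taken by symbol from a table of 45101 probe sets, keeping each probe set that names 1 gene, and they are 10 of 18194 genes with such a probe set. The 10 genes had 20 single-gene probe sets. At the gene level each was represented by the probe set of highest mean, and all 10 passed the filter on dim genes, which asked for at least 3 of 6 arrays at or above the array's own median.

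The arrays measured 6 tumours grown under the skin of the back from injected KPC1199 cells, which derive from pancreatic ductal adenocarcinoma of the mouse. Of the hosts, 3 were lactating mice, injected when the mouse was pregnant or had started to nurse, and 3 were control mice. All were collected 20 days after injection from mice of the same age, and each tumour, a separate biological replicate by its label, had its own Affymetrix array. The strain and sex of the mice are not given in the sources used here, nor is the state, pregnancy or nursing, in which each lactation mouse was injected. The signals are the deposited MAS5 values on a linear scale, already scaled to a common level, and array medians lay between 99.3 and 111.0. All 10 ductal epithelial markers tested, among them Krt19 and Epcam, lay at or above the array median on all 6 arrays, as did all 13 general fibroblast markers. Whole tumours were measured, so fewer cells of a type and less RNA per cell cannot be told apart.

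Myofibroblasts are fibroblasts that have taken up part of the contractile machinery of smooth muscle. Actin filaments, steadied by tropomyosin and calponin, are pulled by myosin once its light chain has been phosphorylated by myosin light chain kinase. In pancreatic cancer such cells line the tumour nests and lay down matrix, and TGF-beta and the serum response factor, SRF, are the best known inducers of the state. Acta2 encodes alpha smooth muscle actin, the usual marker of these cells. Tagln encodes transgelin, an actin cross-linking protein, Cnn1 calponin 1, Tpm2 the beta tropomyosin, Myl9 the regulatory light chain of smooth muscle myosin, and Mylk its kinase. Lrrc15 is a leucine-rich repeat membrane protein of TGF-beta driven fibroblasts. Thbs2 (thrombospondin 2) and Postn (periostin) are secreted matrix proteins, and Fap is a cell surface serine protease of activated fibroblasts. Skeletal muscle also makes beta tropomyosin.

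SRF binds a DNA element called the CArG box, and the promoters of Acta2 and Myl9 are shown because they were the members' windows that held the element or a near match. The windows are RefSeq promoter sequences on GRCm38.p6, from 250 bases before the transcription start to 50 after it. Acta2 lies at chr19:34255324-34255623 on the minus strand and Myl9 at chr2:156775214-156775513 on the plus strand. Capitals mark CArG boxes and matches with 1 other base in the A and T core.
Acta2: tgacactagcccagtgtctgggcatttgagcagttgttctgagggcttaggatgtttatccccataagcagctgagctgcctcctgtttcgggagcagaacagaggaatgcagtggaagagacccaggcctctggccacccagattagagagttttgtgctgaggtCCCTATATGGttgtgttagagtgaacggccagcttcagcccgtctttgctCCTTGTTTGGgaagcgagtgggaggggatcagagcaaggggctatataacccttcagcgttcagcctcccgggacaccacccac
Myl9: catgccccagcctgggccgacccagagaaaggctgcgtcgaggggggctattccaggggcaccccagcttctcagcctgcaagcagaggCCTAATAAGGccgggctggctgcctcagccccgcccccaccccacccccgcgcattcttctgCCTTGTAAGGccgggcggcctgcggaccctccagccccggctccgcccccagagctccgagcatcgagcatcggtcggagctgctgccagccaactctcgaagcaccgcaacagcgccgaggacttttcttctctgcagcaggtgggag
Myl9 had a full match, CCTAATAAGG, starting at base -161 and a near match at -99. Acta2 had 2 near matches, CCCTATATGG at -84 and CCTTGTTTGG at -34, and no full match. The element reads the same class of letters on both strands. A full match was present in 1.63% of the 32851 promoter windows in the table and a near match in 8.5%. The windows of Cnn1, Tpm2, Mylk, Lrrc15, Thbs2 and Postn held neither, and Tagln and Fap had no window in the table. A match is a description of the letters only.

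The comparison asked whether tumours of lactating hosts carry a different level of this stromal programme. None of the 10 genes passed the test between the host groups, and values overlapped between the groups for all 10. Of 11623 genes tested with limma, 0%, or 0 genes, had a Benjamini-Hochberg adjusted p under 0.05, and 264 had an unadjusted p under 0.05. Among the 10 members the unadjusted p ranged from 0.363 to 0.887. Differences of the members lay between -0.23 for Fap and 0.28 for Cnn1 on the log2(signal + 16) scale, 4 positive and 6 negative. Their median absolute difference was 0.069, where that of all genes tested was 0.090. Groups did not overlap, lactation higher, for 3.71% of genes tested, and lactation lower for 3.19%, while this count was 0 of 10 among the members.

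**Figure D1:**
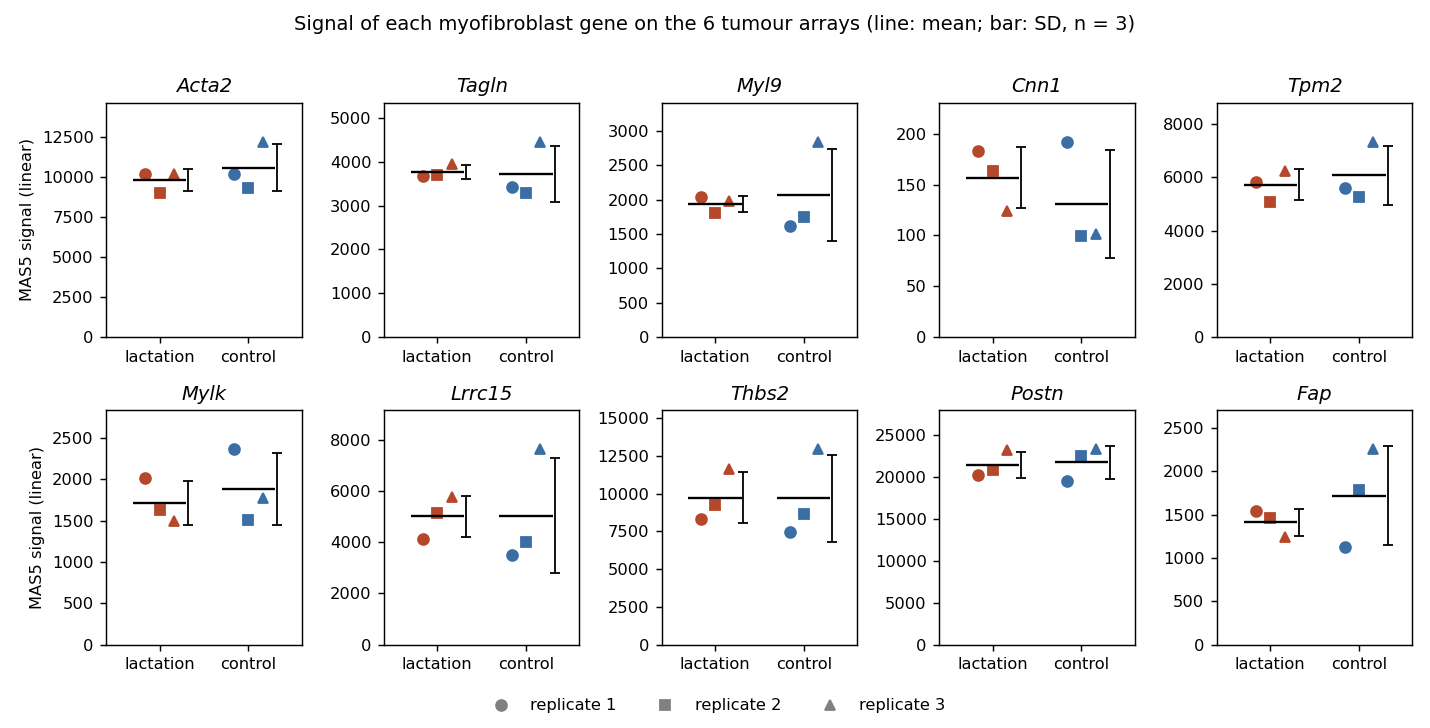
MAS5 signal (linear axis from 0) of each of the 10 genes on the 6 arrays, lactation left and control right, with replicate number as the symbol, the group mean as a line and the SD (n = 3) as a bar. Control replicate 3 is the highest array in 8 of the 10 panels and the groups overlap in each.

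Acta2 had signals of 10201, 9016 and 10193 in tumours of lactating mice, against 10191, 9341 and 12207 in control tumours. Control replicate 3 was the highest of the 6 arrays and the other 5 lay close together, with lactation replicate 2 the lowest. The means were 9803 ± 682 in lactation and 10580 ± 1472 in controls (SD, n = 3 each). The log2 difference was -0.10 with a standard error of 0.11. Its 95% interval ran from 0.78-fold to 1.11-fold, and limma's adjusted p was 1. Without control replicate 3 the difference was 0.00. The other probe sets of Acta2 gave signals of 22.2 to 54.2 and of 4.98 to 45.7, and both lay below the filter. The name of the brighter probe set ends in _s_at, by which Affymetrix marks probes shared by several transcripts. Other actin genes could add to its signal, and this was not tested. Its order of arrays was unlike that of the skeletal muscle actin Acta1, which had 19111, 8732 and 5273 in lactation and 13106, 18502 and 4016 in controls.

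Tagln, which binds and bundles actin filaments, had 3667, 3689 and 3959 in lactation, against 3422, 3287 and 4455 in controls. The lactation values had an SD of 163 (n = 3), and all lay between the control values. The log2 difference was 0.03 with a standard error of 0.12, and its interval ran from 0.84-fold to 1.25-fold. Leaving out control replicate 3 gave 0.17, and leaving out control replicate 2 gave -0.05.

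Myl9, the light chain that switches myosin on, had 2031, 1806 and 1973 in lactation, against 1609, 1751 and 2841 in controls. Control replicate 3 stood at 1.55-fold the mean of the other 5 arrays, and the groups overlapped. The difference was -0.05 with a standard error of 0.21, and it turned to 0.20 without that tumour. Its interval ran from 0.69-fold to 1.35-fold.

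Mylk, the kinase of that light chain, had 2011, 1630 and 1498 in lactation, against 2361, 1503 and 1779 in controls. Here control replicate 1 was the highest array, whereas control replicate 3 was the highest for Acta2, Tagln and Myl9. A second bright probe set of Mylk gave the same order at the top, with 1839, 1381 and 1234 in lactation and 2034, 1178 and 1759 in controls. The gene-level difference was -0.12 with a standard error of 0.18 and an interval from 0.68-fold to 1.24-fold. Without control replicate 1 it was 0.06. The third probe set, at 60.6 to 94.1, lay below the filter.

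Cnn1, calponin 1, is a marker of mature smooth muscle as well as of myofibroblasts. Its signals were 183, 163 and 124 in lactation, against 192, 99.1 and 101 in controls. Values were near the array medians, and the probe set was at or above the median on 5 of 6 arrays. The difference of 0.28 was the largest among the 10 genes, with a standard error of 0.29, and its interval from 0.76-fold to 1.93-fold was the widest upward. It stayed between 0.13 and 0.56 when any 1 array was left out. Control replicate 3, the highest array for 8 members, was 0.71-fold of the mean of the other arrays for Cnn1.

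Tpm2 had 4 probe sets, called A to D here by falling mean signal, and they showed different patterns over the tumours. Probe set A, the gene-level one, had 5847, 5090 and 6248 in lactation, against 5615, 5274 and 7340 in controls. Its log2 difference was -0.07 with a standard error of 0.14, an interval from 0.76-fold to 1.19-fold, and 0.07 without control replicate 3. Probe set B had 4747, 3436 and 3768 in lactation and 3887, 4449 and 4821 in controls, with the same highest and lowest arrays. The other 2 probe sets ran another way. Signals of probe set C were 5041, 1848 and 1751 in lactation, against 2897, 4664 and 1429 in controls, and control replicate 3 was the lowest array. Signals of probe set D were 425, 176 and 145 in lactation, against 266, 428 and 109 in controls, and control replicate 3 was again the lowest. The name of probe set C ends in _x_at, which marks probes that may bind other transcripts too. Between the host groups the differences of these 2 probe sets were -0.08 and -0.07, with standard errors of 0.51 and 0.53, several times those of the first pair.

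The mean log2 level of 13 skeletal muscle markers, such as Ckm, the muscle creatine kinase, and Myh4, a fast fibre myosin, had the same order of arrays as probe set D, although single markers differed from it. It was 12.89, 11.18 and 10.20 in lactation tumours, against 11.49, 12.90 and 9.68 in control tumours. Control replicate 2 and lactation replicate 1 were therefore the highest and control replicate 3 the lowest, for the list's mean as for the probe set. All 13 markers lay at or above the array median on all 6 arrays, and none was at 0. Their summed signal ranged from 19560 to 115694 in lactation and from 14272 to 113901 in controls, an 8.11-fold range that crosses the groups. The part of skeletal muscle RNA in the signal of these Tpm2 probe sets was not tested.

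**Figure D2:**
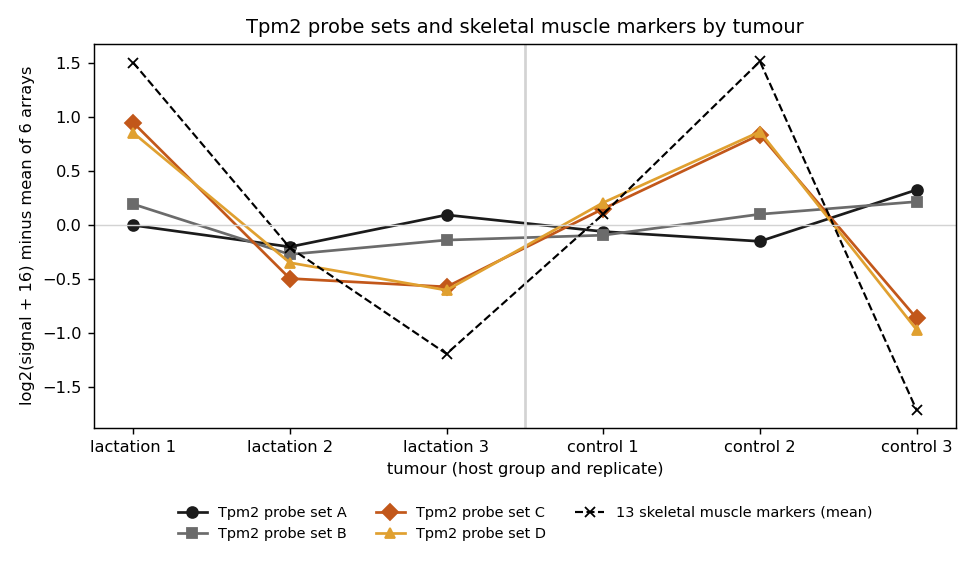
Log2(signal + 16) minus the mean of 6 arrays for the 4 Tpm2 probe sets and for the mean of 13 skeletal muscle markers (dashed), by tumour, lactation left of the grey line. Probe sets C and D are high in the tumours where the muscle markers are high, while A and B have control replicate 3 as their highest array.

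For the matrix and surface genes the highest and lowest tumours were both controls. Lrrc15 had 4135, 5143 and 5757 in lactation, against 3516, 3994 and 7636 in controls. The lactation values lay inside the control range, whose top was control replicate 3 at 1.72-fold the mean of the other arrays. The difference was 0.06 with a standard error of 0.29 and an interval from 0.65-fold to 1.67-fold. Leaving out control replicate 3 gave 0.40, and leaving out control replicate 1 gave -0.15. The second Lrrc15 probe set also had control replicate 3 highest and control replicate 1 lowest, with 2809, 3938 and 4558 in lactation and 2702, 2981 and 6180 in controls.

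Thbs2, which regulates collagen fibre assembly, had 8322, 9266 and 11639 in lactation, against 7475, 8687 and 12939 in controls. Lactation replicate 3 and control replicate 3 were the 2 high tumours, 1 in each group. The log2 difference was 0.03 with a standard error of 0.21 and an interval from 0.72-fold to 1.45-fold. Its other 2 probe sets had differences of 0.10 and -0.04 and the same 2 highest arrays.

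Postn had 20263, 20812 and 23206 in lactation, against 19490, 22477 and 23306 in controls. This was the narrowest comparison of the 10, with a difference of -0.02, a standard error of 0.09 and an interval from 0.85-fold to 1.14-fold. Postn was bright on all 6 arrays, and control replicates 1 and 3 were its lowest and highest.

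Fap, the protease, had 1541, 1459 and 1240 in lactation, against 1122, 1782 and 2252 in controls. The controls spanned a wider range than the lactation tumours, which all lay inside it. The difference of -0.23 had a standard error of 0.24 and an interval from 0.57-fold to 1.27-fold. It was -0.01 with control replicate 3 left out and -0.50 with control replicate 1 left out, so each of these tumours moved it.

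**Figure D3:**
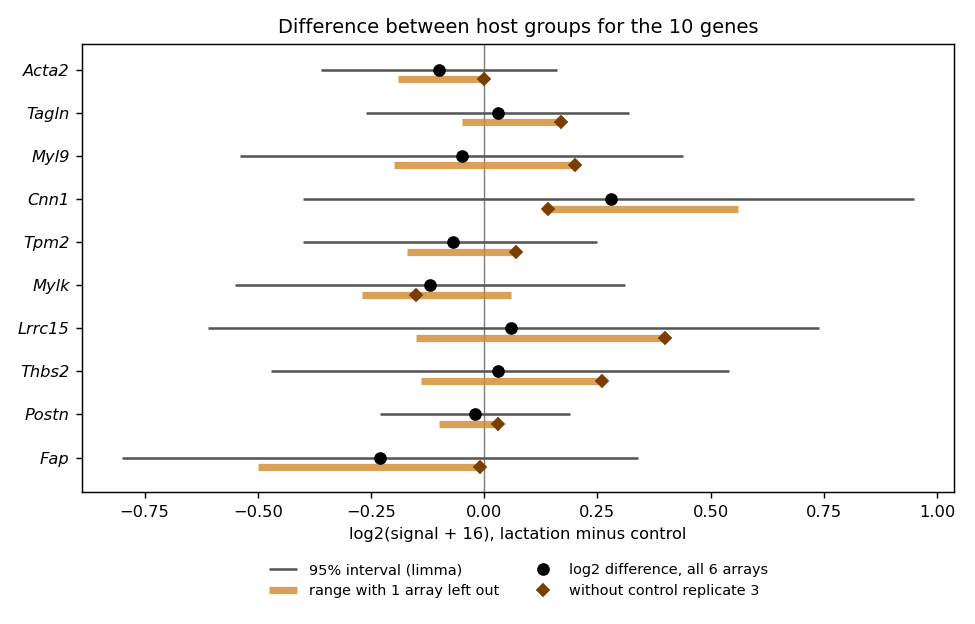
Log2(signal + 16) difference, lactation minus control, for each of the 10 genes (black point) with limma's 95% interval (grey line), the range when 1 array is left out (orange band) and the value without control replicate 3 (brown diamond). All 10 intervals include 0, and the brown diamond lies at or right of the black point for Acta2, Tagln, Myl9, Tpm2, Lrrc15, Thbs2, Postn and Fap.

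As a group the 6 contractile genes had a median difference of -0.06 and the 4 matrix and surface genes 0.01, beside -0.005 over all genes tested. The contractile median was -0.05 after quantile normalization, -0.11 with arrays centred on their medians and 0.04 with arrays centred on the fibroblast markers. The matrix median turned to -0.04 with arrays centred on their medians. Without control replicate 3 the medians were 0.11 and 0.15. At the level of single probe sets 17 of the 20 passed the filter, and none of the 17 was called. Of all 20267 probe sets tested with limma, 0%, or 0 probe sets, had an adjusted p under 0.05, and 496 had an unadjusted p under 0.05.

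Most of the 10 genes had the same highest tumour, and it was a control. The range over the 6 arrays had a median of 0.72 on the log2 scale among the members and 0.44 among all genes tested. Control replicate 3 was the highest array for 8 of the 10 members, while it was highest for 22.1% of genes tested. Control replicate 1 was the lowest array for 5 members, Myl9 and the 4 matrix and surface genes, while it was lowest for 14.6% of genes tested. For these 5 members both extremes were thus control tumours. The same held for Tagln and Cnn1, the 2 members for which control replicate 2 was lowest. Lactation replicate 2 was lowest for 2 members and lactation replicate 3 for 1. Cnn1 and Mylk stood apart with control replicate 1 as their highest array. For the matrix and surface genes the mean log2 level was 12.49, 12.60 and 12.70 in lactation and 12.27, 12.58 and 13.05 in controls. For the contractile genes it was 11.22, 11.05 and 11.09 in lactation and 11.18, 10.91 and 11.28 in controls.

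Most markers of fibroblasts, pericytes and endothelial cells were also highest in control replicate 3, while most smooth muscle markers were not. The mean log2 level of the 13 general fibroblast markers, among them Col1a1, Dcn and Pdgfrb, was 12.36, 12.49 and 12.39 in lactation and 12.17, 12.41 and 12.97 in controls. Control replicate 3 was the highest array for 12 of these 13 markers, for 6 of 7 pericyte markers and for 7 of 8 endothelial markers. The count was 4 of 7 for macrophage markers and 1 of 5 for the smooth muscle markers tested. The mean log2 level of the smooth muscle markers was 8.56 in control replicate 3 and 9.67 in lactation replicate 1, its highest array. The summed fibroblast signal ranged from 99131 to 109173 in lactation and from 91982 to 144306 in controls. The summed pericyte signal ranged from 6578 to 7356 in lactation and from 6349 to 10623 in controls, with Higd1b below the filter. The endothelial sum ranged from 4002 to 4360 in lactation and from 3508 to 6070 in controls. Their part in the level of the 10 genes was not tested.

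Ductal epithelial markers ran differently, with mean levels of 12.76, 12.37 and 13.10 in lactation and 12.70, 12.18 and 12.34 in controls. The sum of their signals ranged from 78929 to 112689 in lactation and from 73076 to 93170 in controls, with all 10 markers tested. The median difference of this list was 0.31, with 10 of 10 positive and 9 of 10 positive when arrays were centred on their medians. Without lactation replicate 3 the median was 0.17, and without lactation replicate 2 it was 0.49. None of the 10 passed the test.

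**Figure D4:**
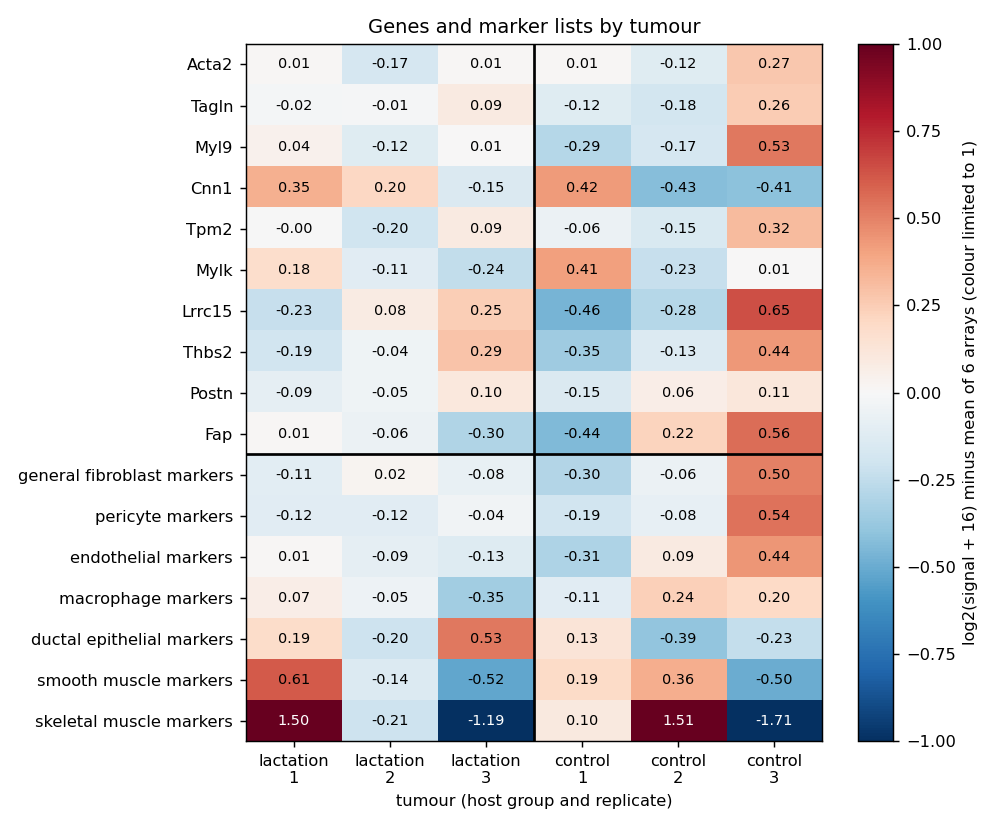
Log2(signal + 16) minus the mean of 6 arrays for the 10 genes (above the black line) and for the mean of 7 marker lists (below), by tumour, lactation left of the vertical line. Control replicate 3 is high for 8 members and for fibroblast, pericyte and endothelial markers, and lowest for skeletal muscle markers at -1.71.

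Set against the fibroblast markers of the same array, the order of arrays changed for contractile and matrix genes alike. This view was chosen after the data had been seen. The subtracted marker mean was itself highest in control replicate 3 and lowest in control replicate 1, at 0.51 and -0.30 when centred. A gene that varied less than that mean between these tumours therefore turns by construction. Acta2 stood 0.96, 0.65 and 0.93 above the mean log2 level of those markers in lactation, and 1.15, 0.78 and 0.61 above it in controls. Control replicate 3, the highest array for Acta2 signal, was then the lowest, and control replicate 1 the highest. The same turn was seen for Tagln, with control replicate 1 at -0.42 and control replicate 3 at -0.84. Mylk ranged over 1.21 and Cnn1 over 1.64 on this scale, with the same highest and lowest arrays. Myl9 kept the narrowest range, 0.30. Among the matrix genes, Postn also had control replicate 3, its highest array by signal, as its lowest here, at 1.54, with lactation replicate 3 highest at 2.12. Thbs2 lay between 0.67 and 0.70 on 5 arrays and at 1.12 in lactation replicate 3. Differences between host groups on this scale ran from -0.12 for Fap to 0.38 for Cnn1. Groups overlapped for all 10 genes, and limma's adjusted p was 1 for each.

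**Figure D5:**
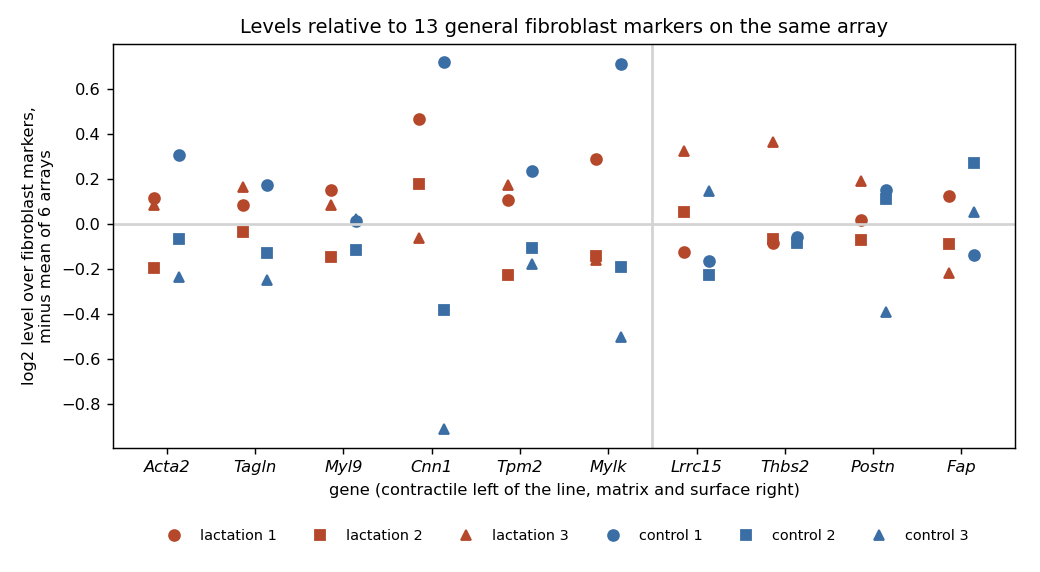
Log2 level of each gene minus the mean log2 level of 13 general fibroblast markers on the same array, centred on the mean of 6 arrays. Symbols give the replicate and colours the host group, lactation left of control. Control replicate 1 is highest for Acta2, Tagln, Tpm2, Cnn1 and Mylk, and control replicate 3 is lowest for Acta2, Tagln, Cnn1, Mylk and Postn.

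Other genes of the contractile apparatus were taken from a list of 28. Of these, 27 were tested, 12 with a positive and 15 with a negative difference, and none passed the test. Their median was -0.02, and it was 0.09 with arrays centred on the fibroblast markers. With arrays centred on their medians only 3 of the 27 were positive. The largest differences were 0.27 for Myh11, the smooth muscle myosin heavy chain, -0.22 for Synpo2, an actin-binding protein of smooth and striated muscle, and -0.15 for Myh10, a nonmuscle myosin. The smooth muscle actin Actg2 had 1363, 684 and 759 in lactation, against 1062, 858 and 882 in controls, with a difference of -0.06. Lmod1 lay below the filter.

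SRF itself was measured as well. Srf had 641, 719 and 687 in lactation, against 744, 564 and 697 in controls, with a difference of 0.04, a standard error of 0.13 and an adjusted p of 1 in limma. Its highest and lowest arrays were both controls, and the groups overlapped. The SRF cofactor Myocd lay below the filter, with signals of 4.13 to 25.9.

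A list of 22 symbols covered further myofibroblast matrix genes and TGF-beta targets, 1 gene under both its current and its older symbol. Of these genes 18 were tested, 1 positive and 17 negative, with a median of -0.09 and none called. After quantile normalization 3 were positive. With arrays centred on the fibroblast markers 11 of the 18 were positive and the median was 0.02. Without control replicate 3, 8 were positive and the median was -0.05, and without control replicate 2 the median was -0.21. The largest differences were -0.26 for Igfbp3, which binds insulin-like growth factors, and -0.25 each for Tgfbi and Mfap5, proteins of the extracellular matrix. Cthrc1, a secreted protein of collagen-making fibroblasts, had 4914, 4938 and 5916 in lactation, against 4146, 5976 and 8968 in controls, a difference of -0.21 with a standard error of 0.26. Its highest array was control replicate 3, as for Lrrc15, Thbs2, Postn and Fap.

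Among the general fibroblast markers 3 of 13 had a positive difference and 10 a negative one, with a median of -0.08 and none called. After quantile normalization 5 were positive, and with arrays centred on their medians 0 of 13 were, with a median of -0.12. The median was 0.19 without control replicate 3, 0.01 without lactation replicate 1 and -0.32 without control replicate 1. Pdgfrb, a receptor of fibroblasts and pericytes, had the largest difference, -0.43 with a standard error of 0.20, from 4802, 4034 and 3450 in lactation and 5625, 4167 and 7025 in controls. Pdgfra followed with -0.36 and Serpinf1 with -0.18. Col1a1 had 9674, 12092 and 12494 in lactation, against 9431, 10468 and 15034 in controls, a difference of -0.01. Of 7 pericyte markers 6 had a negative difference, led by Abcc9 with -0.35, Mcam with -0.33 and Kcnj8 with -0.31, and none was called. The pericyte median was -0.28, and without control replicate 3 it was -0.07 with 3 of 7 positive. Rgs5 had a difference of -0.28 with a standard error of 0.22.

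Other cells with a contractile apparatus were looked for by their markers. Of 9 smooth muscle markers 5 were tested, and Lmod1, Myocd, Hhip and Kcnmb1 lay below the filter. Myh11 had signals of 145, 123 and 86.5 in lactation, against 75.0, 85.0 and 126 in controls. The muscle intermediate filament gene Des had 4100, 1241 and 667 in lactation, against 2271, 4096 and 445 in controls, in the same order of arrays as Acta1. Des is also a skeletal muscle gene. The summed signal of the 5 tested markers ranged from 2271 to 6930 in lactation and from 2338 to 6407 in controls. Their median difference of -0.06 moved between -0.59 without lactation replicate 1 and 0.21 without control replicate 2.

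Myoepithelial cells of the mammary gland contract to eject milk and also make alpha smooth muscle actin. Of 11 myoepithelial and mammary markers 4 were tested, Krt14, Krt5, Krt17 and Trp63, which basal epithelium makes in general. All 4 had a positive difference and none passed the test. Krt5 had 347, 331 and 838 in lactation, against 269, 242 and 147 in controls, a difference of 1.06 with a standard error of 0.38, an unadjusted p of 0.0284 and an adjusted p of 1 in limma. Its groups did not overlap. Krt17 had a difference of 0.69 and Krt14 0.27. The summed signal of the 4 ranged from 5452 to 10613 in lactation and from 4979 to 8897 in controls. Their median difference of 0.48 moved between 0.29 without lactation replicate 3 and 0.92 without lactation replicate 2. The oxytocin receptor gene Oxtr, a marker of myoepithelium, lay below the median on all arrays, at 37.9 to 45.8 in lactation and 18.9 to 49.1 in controls. The milk protein genes Csn2, Csn1s1, Csn3, Wap, Lalba and Glycam1 lay below the filter too. Csn2 had 333 in lactation replicate 2 and between 1.96 and 27.0 on the other arrays. Acta2 and Cnn1 were not highest on that array, and a mammary part in their signals was not tested.

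In the other marker lists no gene passed the test. Of 8 endothelial markers 7 were negative and 1 positive, with the largest differences in Emcn at -0.29, Cdh5 at -0.23 and Tek at -0.15. The endothelial median was -0.14, and leaving out control replicate 3 gave 0.05, while leaving out control replicate 1 gave -0.31. Of 7 macrophage markers 6 were negative, led by Itgam at -0.64, with Cd68 at -0.35, while Cd14 had 0.41. The macrophage median was -0.26, and leaving out lactation replicate 3 gave -0.10 and leaving out control replicate 1 gave -0.40. In ductal epithelium the largest differences were 0.64 for Tspan8, 0.60 for Muc1 and 0.55 for Cldn4, and Krt19 had 0.29. In skeletal muscle they were -0.74 for Mb, 0.67 for Myh4 and 0.50 for Actn3, and Acta1 had -0.05. The skeletal muscle median of 0.06 moved between -0.69 with control replicate 3 left out and 0.92 with control replicate 2 left out. Itgam was lower in all lactation tumours, at 208, 218 and 185, against 224, 404 and 379 in controls, with an unadjusted p of 0.0272 and an adjusted p of 1 in limma.

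Over the 6 arrays the genes tested whose levels ran most like the contractile members were Zdhhc18 (Pearson r = 0.985), Vasp (0.979), Poldip2 (0.977), Entpd3 (0.977) and Psme4 (0.974). Vasp, an actin filament elongation factor, had 4778, 4162 and 4503 in lactation, against 4413, 3982 and 5173 in controls. Most like the matrix and surface members were Ndufa4l2 (0.996), Akap17b (0.993), Gask1b (0.993), Cldn34c1 (0.992) and Rnf144a (0.991). Ndufa4l2 had 139, 161 and 222 in lactation, against 104, 178 and 306 in controls, and control replicate 3 was its highest array. These are the highest r among the other genes tested over 6 arrays that share their scaling, and they are a description only.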

How the data were processed

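Total RNA of 6 tumours was hybridised to Affymetrix arrays, 3 of lactation and 3 of control mice. The deposited values are linear intensities, and the submitters' processing notes name MAS5 as their source, without a version. The 45101 probe sets were named from GEO's platform annotation and current symbols, and those with 1 gene were kept. Here log2(signal + 16) was fitted with limma 3.58.1 in R 4.3.3 (eBayes, trend on mean intensity), using 1 probe set a gene, that of highest mean, and Benjamini-Hochberg adjustment over all 11623 genes tested. A second fit took 20267 single probe sets. The code was tested on simulated data. The number of arrays limits the precision.

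The members and lists were chosen with earlier results of these data known. Named were the members, up to 3 genes of largest absolute difference in each list, 11 fixed genes and 5 genes of most like pattern for each member group. Epcam, Ckm, Dcn, Trp63, Oxtr, the milk protein genes and genes below the filter were named outside that rule, as members of their lists. Each array was left out in turn, and other scalings, filters, added constants, probe set choices and variance settings were tried. Promoters came from RefSeq, and protein sequences were not used here. One further gene list is not reported here.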

Additional observations from a re-analysis of the deposited data

How the results depend on the processing

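No member had an adjusted p under 0.05 in limma under any of 19 alternatives, and the lowest was 0.871. The count of genes called stayed at 0 in each direction except with arrays centred on the fibroblast markers, an alternative chosen after seeing the data, which gave 16 genes higher and 6 lower in lactation. Of 118 member results under the other alternatives that kept every array, 5 turned direction. Averaging probe sets gave Acta2 0.12, a mean that includes its dim probe sets, at -0.09 and 0.55. Tagln and Thbs2 were each -0.01 with arrays centred on their medians. Myl9 was 0.03 with array weights, and Thbs2 was -0.04 with the probe set of largest spread. Centred on fibroblast markers, Myl9 was 0.06, Tpm2 0.03 and Postn 0.09. This scaling subtracts the mean of those markers, whose own difference between the host groups was -0.11. The cause of the other turns was not tested. With 1 array left out, 15 of 60 member results turned, in 7 members. Tagln ranged from -0.05 to 0.17, Myl9 from -0.20 to 0.20, Tpm2 from -0.17 to 0.07, Mylk from -0.27 to 0.06, Lrrc15 from -0.15 to 0.40, Thbs2 from -0.14 to 0.26 and Postn from -0.10 to 0.03. The contractile median lay between -0.16 (control replicate 2 left out) and 0.11 (control replicate 3 left out). The number of genes with an unadjusted p under 0.05 ranged from 137 without lactation replicate 3 to 649 without control replicate 1, and was 577 with no filter. Cnn1 had no value with the filter at the 70th percentile, nor Acta2 with the probe set of largest spread. With the replicate block the gene counts stayed at 0, Acta2 was -0.10 and the lowest unadjusted p of a member was 0.24. Deviations of same-numbered arrays correlated at 0.14, -0.08 and 0.27, and those of differently numbered arrays at -0.47 to 0.46. With so few arrays these values cannot tell whether same-numbered samples share more than a number.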

Other observations

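Some milk protein genes, Csn2, Csn1s1 and Csn3, were listed well above the other arrays in 1 tumour, lactation replicate 2. Csn1s1 had 359 there and 2.63 and 13.1 in the other lactation tumours, against 10.3, 3.13 and 5.71 in controls. Csn3 had 396 there and 66.3 and 74.8 in the other lactation tumours, against 53.9, 67.6 and 76.3 in controls. Lalba had 57.0 there, below the array median, and 6.22 to 20.2 on the other arrays. Wap had 46.3 and Glycam1 5.98 on that array, each within the range of the other arrays.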
